A study of Homo sapiens with 9 samples.

Results

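PMAIP1, BMF and BID are 3 genes of the BH3-only class, the members of the BCL2 family that start the mitochondrial route to apoptosis. They were taken by name from 14884 genes measured in the neuroblastoma cell line SMS-KCNR, an established line of human tumour cells, and all 3 were on the arrays, PMAIP1 and BID by 1 probeset each and BMF by 2, so 4 of 53617 probesets. All 3 had mean values above 5.19, the median of all probesets. They were selected on measured values. The comparison used is not stated and is taken here to be simvastatin against DMSO, so the values of that comparison describe the choice. They are given without a test. Cells had been exposed for 30 hours to the solvent DMSO, to simvastatin (5 µM), or to simvastatin (5 µM) and mevalonate (2 mM) together, and each of these 3 groups has 3 one-colour arrays. All groups come from 1 cell line grown in the same serum-containing medium, so they speak for that line only. Nothing in the labels says whether the 3 samples of a group were grown apart on different days, and the p-values measure the spread between these samples, which may be technical. Values are the authors' normalised log2 values, on which a difference of 1 is a doubling. The number of arrays limits the precision.

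Simvastatin inhibits HMG-CoA reductase, the enzyme that makes mevalonate, and mevalonate given from outside supplies the pathway below the block. In the BCL2 family, guard proteins such as BCL2, BCL-XL (gene BCL2L1) and MCL1 hold the pore-forming effectors BAX and BAK in check, and BH3-only proteins bind the guards or the effectors through a short helix, the BH3 domain. PMAIP1, also called NOXA, binds mainly MCL1 and is transcribed in response to p53 and to the integrated stress response. BMF is held on myosin V motors through a dynein light chain and is released when cells lose attachment or their cytoskeleton is disturbed. BID is made as an inactive precursor that caspase-8 cuts after a death receptor has been engaged, so it joins the receptor route to the mitochondrial one.

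The bases in front of the start sites of PMAIP1 and BMF, the members with the largest differences, are shown because a short motif lay at nearly the same distance from the start in both. It was singled out after several motifs had been searched, and how often windows agree so in distance was not counted. The sequences are RefSeq's (GRCh38.p14), 250 bases up to the base before the gene's first base, 5′ to 3′ on the gene's strand, with TGACG or its reverse complement CGTCA in capitals. The PMAIP1 stretch is chr18:59899746-59899995 on the plus strand and the BMF stretch chr15:40108880-40109129 on the minus strand.
PMAIP1: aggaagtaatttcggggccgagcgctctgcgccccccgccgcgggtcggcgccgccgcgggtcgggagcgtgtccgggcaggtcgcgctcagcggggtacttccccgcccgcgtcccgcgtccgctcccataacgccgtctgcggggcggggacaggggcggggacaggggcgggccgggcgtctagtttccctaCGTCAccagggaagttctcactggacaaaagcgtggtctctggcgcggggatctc
BMF: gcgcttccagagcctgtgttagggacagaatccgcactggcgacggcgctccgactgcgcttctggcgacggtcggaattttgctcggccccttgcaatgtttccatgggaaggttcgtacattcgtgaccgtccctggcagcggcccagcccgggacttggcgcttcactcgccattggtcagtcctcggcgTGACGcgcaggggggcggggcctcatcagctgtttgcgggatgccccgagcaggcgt
TGACG is the core of the cyclic AMP response element bound by factors of the CREB and ATF families. Counted from the first base of the match on the gene's strand, it lay 55 bases before the start in PMAIP1 and 57 in BMF. In PMAIP1 the match was CGTCA, so TGACG itself lay on the opposite strand. The same letters, on either strand, were in 21.2% of the 35116 RefSeq windows of this length. The GC box, GGGCGG, was found 4 times in PMAIP1 and 1 time in BMF, and in 42.6% of all windows. Of the other motifs searched on both strands, neither window held the full element TGACGTCA (1.65% of all windows, and it contains the TGACG core), the C/EBP-ATF element TGATGNAAN (3.13%), the FOXO element GTAAACA (2.98%), the E-box CACGTG (6.34%) or the p53 decamer (5.57%). RefSeq lists a 2nd start for BMF, whose window held none of these motifs, and 5 starts for BID (gene at chr22:17734138-17774665). None of the 5 BID windows held TGACG, 4 held the GC box and 2 the E-box. The BID windows overlap, so the E-box is the same site seen in 2 windows, and several GC boxes are likewise shared. A match of letters is a description of the window and does not show that a factor binds there.

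PMAIP1 was high with simvastatin alone. Its log2 value was 6.58, 6.66 and 6.70 on the DMSO arrays, 7.38, 7.40 and 7.36 on the simvastatin arrays, and 6.81, 6.81 and 6.63 on the arrays with simvastatin and mevalonate. The 3 simvastatin arrays lay above all 6 others, while replicate 3 of the mevalonate group fell inside the DMSO range and its replicates 1 and 2, which carry the same value, lay just above that range. The mean was 6.65 ± 0.06 (SD, n = 3) with DMSO, 7.38 ± 0.02 with simvastatin and 6.75 ± 0.10 with mevalonate added. Simvastatin minus DMSO was 0.74 ± 0.06 (limma's standard error), 1.67-fold, the 58th highest of 14884 genes. Mevalonate on top of simvastatin gave a difference of -0.63 ± 0.06, the 125th lowest, and what was left between the mevalonate group and DMSO was 0.10 ± 0.06, or 14.2% of the simvastatin difference. Without replicate 3 of the mevalonate group it was 0.16.

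BMF went the other way. With its brighter probeset, the one used in the fits, it stood at 6.87, 6.85 and 6.94 with DMSO, at 6.40, 6.34 and 6.33 with simvastatin, and at 6.64, 6.64 and 6.60 with simvastatin and mevalonate. The 3 groups formed 3 separate levels that did not overlap, with the mevalonate arrays between the other groups. This order, DMSO above mevalonate above simvastatin without overlap, was found in 374 of 14884 genes (2.51%). The group means were 6.89 ± 0.05 (SD, n = 3), 6.36 ± 0.03 and 6.63 ± 0.02. Simvastatin minus DMSO was -0.53 ± 0.04 (SE), 1.45-fold lower and the 237th lowest of 14884 genes. The mevalonate group was 0.27 ± 0.04 above simvastatin and 1.20-fold below DMSO (-0.26 ± 0.04), so 49.0% of the simvastatin difference was left.

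The other BMF probeset, assigned to the same transcript in the platform annotation, was dim, below the median of all probesets. It read 3.96, 4.23 and 3.81 with DMSO, 4.02, 3.66 and 3.99 with simvastatin and 3.93 on each of the 3 mevalonate arrays. Its groups overlapped, and its simvastatin minus DMSO of -0.11 ± 0.12 was smaller in size than the -0.53 ± 0.04 of the brighter one. It thus did not repeat the fall of the brighter probeset, and the difference between both probesets was not tested. With the mean over both probesets in place of the brighter one, simvastatin minus DMSO of BMF was -0.32. Values shared exactly between arrays are common in these data, in 57.7% of the 16098 named probesets, and an SD of 0 as here is no measure of precision.

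BID moved least. Its values were 7.99, 7.89 and 7.88 with DMSO, 7.79, 7.66 and 7.71 with simvastatin and 7.92, 7.96 and 7.88 with mevalonate added. The simvastatin arrays were the lowest 3 of the 9, and the DMSO and mevalonate arrays overlapped fully. The means were 7.92 ± 0.06 (SD, n = 3), 7.72 ± 0.06 and 7.92 ± 0.04. Simvastatin minus DMSO was -0.20 ± 0.05 (SE), 1.15-fold lower, the 1770th lowest of 14884 genes. Mevalonate plus simvastatin stood 0.20 ± 0.05 above simvastatin and within 0.0013 ± 0.0522 of DMSO.

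**Figure D1:**
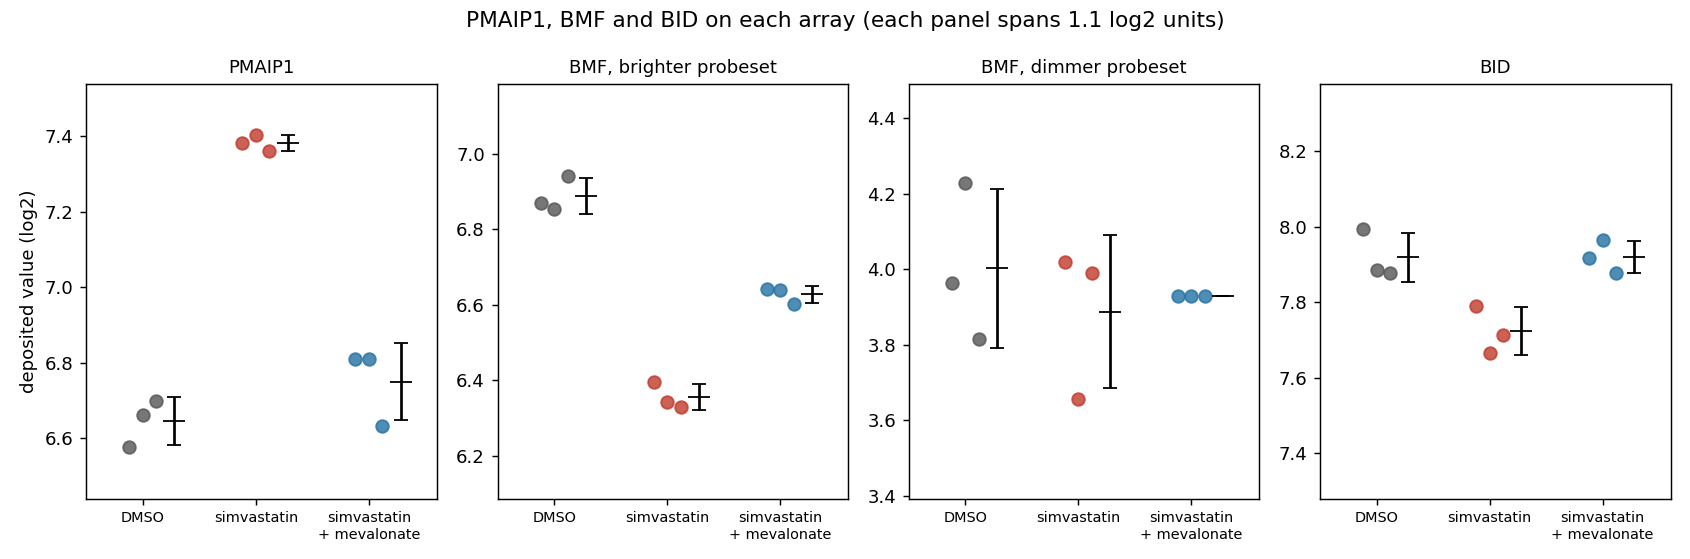
Deposited log2 value of each probeset of PMAIP1, BMF and BID on the 9 arrays. Points are arrays, the black bars give the mean ± SD of the 3 arrays, and each panel spans 1.1 log2 units. PMAIP1 is highest with simvastatin (7.36 to 7.40), the brighter BMF probeset forms 3 separate levels, the dimmer one overlaps between groups, and BID is lowest with simvastatin (7.66 to 7.79).

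Simvastatin minus DMSO, taken to be the comparison behind the choice, called 13.4% of all genes at a Benjamini-Hochberg adjusted p under 0.05 (5.98% higher and 7.38% lower). Its groups did not overlap in 28.6%. Nothing is read from the fact that the groups of all 3 members were apart there. In simvastatin plus mevalonate against simvastatin, 11.0% of genes were called and 27.3% had separate groups, and those of PMAIP1, BMF and BID were separate. In simvastatin plus mevalonate against DMSO 0.0739% were called and 16.5% had separate groups, and of the members only BMF did. These comparisons share arrays with the one taken to have chosen the genes and are not independent of it.

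1 measure is uncorrelated with simvastatin minus DMSO when groups have equal spread, namely the distance of the mevalonate group from the midpoint between DMSO and simvastatin. Its error, however, rests on the same within-group spread as that comparison, and a choice by p-value favours genes with a small spread. A smaller spread than that of PMAIP1, BMF and BID was found in 34.4%, 7.98% and 24.4% of genes. The p-values of the members may therefore lean small and their intervals narrow. The measure is also free of the choice only if simvastatin minus DMSO alone was used for it, which is assumed here. If the mevalonate arrays entered the choice, the p-values of the members below are no test. A gene that mevalonate returns to the DMSO level lies on the DMSO side of that midpoint, and a gene it leaves alone lies on the simvastatin side. Over all genes 2.73% were called by this measure (1.07% higher and 1.65% lower). PMAIP1 lay 0.26 ± 0.05 (SE) below the midpoint, on the DMSO side, with all 3 mevalonate arrays below it (limma, adjusted p = 0.0341, 95% interval -0.38 to -0.15). That call was lost without any 1 of the 9 arrays in turn (limma adjusted p from 0.0504 to 0.104), although the distance stayed between -0.29 and -0.20, and with the replicate number as a block (adjusted p = 0.0895). BMF lay on the midpoint, at 0.0053 ± 0.0362 (limma, adjusted p = 0.961, interval -0.08 to 0.09). Its DMSO and simvastatin means were 0.27 from the midpoint on either side. That 0.27 comes from simvastatin minus DMSO and has an error of its own, so the interval is no test against either group. BID lay 0.10 ± 0.05 above it, toward DMSO, which did not pass the test (limma, adjusted p = 0.342, interval -0.0041 to 0.20).

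Of 17 family genes in the classes of guards, effectors and BH3-only proteins, 14 are not among the 3 members, and 12 of these carried a name on the arrays (BCL2L2 and HRK were not analysed here). None of the 12 was called in simvastatin against DMSO (limma, 0 of 12, beside 13.4% of all genes, with 1 at an unadjusted p under 0.05). If the members were picked as the genes of the family that were called, this count follows from the choice, so nothing is read from it. The median difference of the 12 was 0.05, against 0.01 over all genes. Among the guards, MCL1, the main partner of PMAIP1, read 9.20, 9.06 and 9.15 with DMSO, 9.26, 9.11 and 9.22 with simvastatin, and 9.08, 9.0001 and 8.996 with mevalonate added. The MCL1 arrays of DMSO and simvastatin overlapped (0.06 ± 0.06, limma adjusted p = 0.578), and MCL1 with mevalonate was 0.17 ± 0.06 below simvastatin (adjusted p = 0.106, past the threshold with a mean-dependent, robust variance model). BCL2 (0.05 ± 0.04, limma adjusted p = 0.499) and BCL2L1 (-0.000056 ± 0.04) did not pass the test, and BCL2A1 and BCL2L10 were dim, with mean log2 values of 3.45 and 4.14.

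Of the effectors, which form the pore in the outer mitochondrial membrane, BAX differed between simvastatin and DMSO by 0.04 ± 0.10, BAK1 by -0.04 ± 0.06 and BOK by 0.17 ± 0.10, and 0 of 3 were called, beside 13.4% of all genes (limma, 0 at an unadjusted p under 0.05). BOK was called higher without DMSO replicate 2 (limma adjusted p = 0.0455).

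Among the 4 other BH3-only genes with a value, BBC3 had the largest difference between simvastatin and DMSO, larger in size than that of the member BID (0.38 beside -0.20) but with a wider error. BBC3, also called PUMA, is a p53 target whose protein binds every guard. It read 5.93, 5.77 and 5.67 with DMSO, 5.93, 6.28 and 6.29 with simvastatin, and 5.94, 5.89 and 6.20 with mevalonate. Simvastatin replicate 1 had the same value as DMSO replicate 1, so the groups touched, and the difference of 0.38 ± 0.12 missed the threshold (limma, adjusted p = 0.0836). It was called without simvastatin replicate 1 (limma adjusted p = 0.0254), when genes below the median of all probesets were left out, and with the mean-dependent, robust variance model. BCL2L11, also called BIM, which binds guards and effectors alike, read 7.38, 7.31 and 7.32 with DMSO, 7.35, 7.45 and 7.39 with simvastatin and 7.25, 7.21 and 7.22 with mevalonate added. The mevalonate arrays were the lowest 3, and BCL2L11 fell by 0.17 ± 0.04 against simvastatin (limma, adjusted p = 0.0425), a call lost without any 1 array but simvastatin replicate 1 (adjusted p up to 0.117), with quantile normalisation, with the replicate block and when the DMSO arrays were left out of the fit. It was the only 1 of the 12 called in that comparison, in which 11.0% of all genes were, and 0 of 12 were called in simvastatin plus mevalonate against DMSO (limma, 1 at an unadjusted p under 0.05) or against the midpoint (2 at an unadjusted p under 0.05). BAD (-0.05 ± 0.06), which growth factor signalling keeps inactive by phosphorylation, was level with simvastatin, and BIK, dim at a mean log2 of 4.64, differed by 0.18 ± 0.08 (limma, adjusted p = 0.228).

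**Figure D2:**
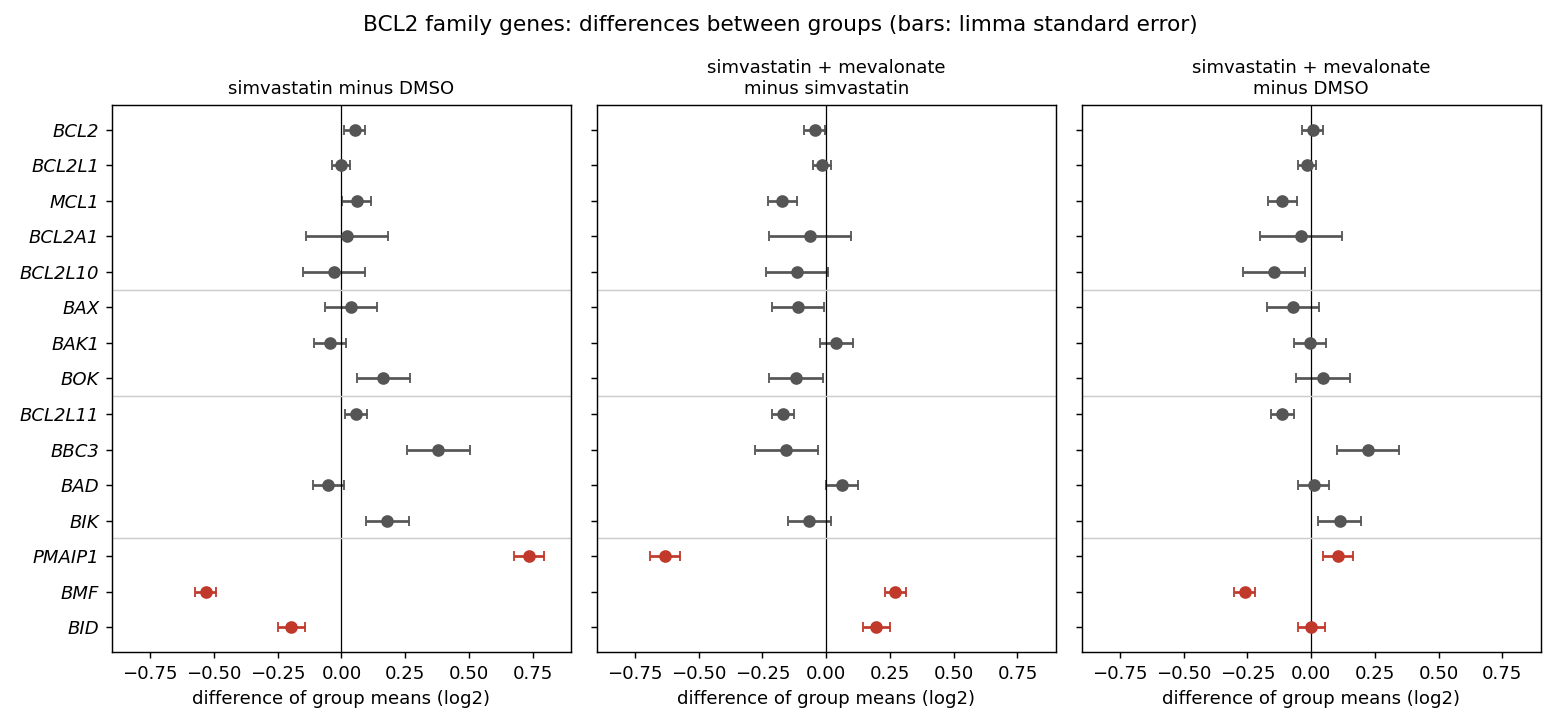
Differences of group means (log2) of 15 BCL2 family genes in the 3 comparisons, with bars for limma's standard error. From the top the blocks are guards, effectors, other BH3-only genes and, in red, PMAIP1, BMF and BID. PMAIP1 (0.74) and BMF (-0.53) lie farthest from 0 in the first panel, and BMF (-0.26) is farthest from 0 in the last.

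BNIP3L, which encodes a mitochondrial protein with a BH3-like stretch that marks mitochondria for autophagy, was the 1 of 6 more distant relatives to be called in simvastatin against DMSO, beside 13.4% of all genes. It rose by 0.17 with simvastatin (limma, adjusted p = 0.0483), a call lost without any 1 array but DMSO replicate 3 (adjusted p up to 0.146), with the replicate block and when the mevalonate arrays were left out of the fit. With mevalonate added BNIP3L fell by 0.24 against simvastatin (adjusted p = 0.0139), a call kept without each array in turn. The median of the 6 was -0.02 in the first comparison.

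Downstream of the mitochondria, 3 of 10 listed genes of the apoptosome, the caspases and the released mitochondrial proteins had a value here, and 2 of the 3 fell with simvastatin (background 7.38% lower). APAF1, the scaffold on which released cytochrome c activates caspase-9, read 7.11, 7.25 and 7.29 with DMSO, 6.71, 6.58 and 6.57 with simvastatin, and 6.94, 6.82 and 6.75 with mevalonate. Like those of BMF, its 3 groups were separate, with mevalonate between the others. APAF1 fell by 0.60 with simvastatin (limma, adjusted p = 0.000921). Mevalonate against simvastatin gave 0.22 (adjusted p = 0.0976) and mevalonate against DMSO -0.38 (adjusted p = 0.105), neither past the threshold. The latter passed it without genes below the median of all probesets (adjusted p = 0.0432) and with the mean-dependent, robust variance model (0.0249). ENDOG, a mitochondrial nuclease that can enter the nucleus in dying cells, fell by 0.28 (limma, adjusted p = 0.013). With mevalonate ENDOG was at -0.19 against DMSO, with separate groups (limma, adjusted p = 0.281). HTRA2, a mitochondrial protease that antagonises inhibitors of apoptosis, was at 0.11 (adjusted p = 0.207). The median of the 3 was -0.28, beside 0.01 over all genes.

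Of 5 measured inhibitor of apoptosis genes out of 7, 1 was called in simvastatin against DMSO, beside 13.4% of all genes. It was BIRC5 (survivin), which also serves in the chromosomal passenger complex of mitosis. BIRC5 read 8.54, 8.33 and 8.51 with DMSO, 7.77, 7.76 and 7.80 with simvastatin, and 8.25, 8.32 and 8.29 with mevalonate. It fell by 0.68 with simvastatin (limma, adjusted p = 0.000181) and rose by 0.51 with mevalonate against simvastatin (adjusted p = 0.00101). Mevalonate against DMSO was -0.17 (limma, adjusted p = 0.357). The 3 groups of BIRC5 were separate, with mevalonate between the others, but the mevalonate and DMSO arrays nearly touched. XIAP, the inhibitor that binds caspases most directly, was at 0.16 with simvastatin (adjusted p = 0.421).

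On the receptor route, which BID joins to the mitochondrial one, 4 of 13 listed genes had a value. Of these, 0 were called in simvastatin against DMSO, beside 13.4% of all genes (limma, 2 at an unadjusted p under 0.05). FADD, the adaptor between death receptors and caspase-8, was 0.27 higher with simvastatin (adjusted p = 0.0648), which passed the threshold with its probesets averaged (adjusted p = 0.043), without genes below the median of all probesets (0.0352) and with the mean-dependent, robust variance model (0.0418). It fell by 0.30 when mevalonate was added (limma, adjusted p = 0.0481, lost without 7 of the 9 arrays taken singly, with the replicate block and without the DMSO arrays in the fit). MTCH2, which encodes a receptor for truncated BID on mitochondria, was at -0.01 with simvastatin. CASP8, the gene of the protease that cuts BID, was not analysed here.

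Among transcription factors known to act on PMAIP1 or BMF, 7 of 9 had a value and 1 rose with simvastatin, beside 5.98% of all genes. ATF3, a stress-induced factor that acts with ATF4, read 5.82, 5.83 and 5.58 with DMSO, 6.20, 6.31 and 6.34 with simvastatin and 5.4955, 5.88 and 5.79 with mevalonate. The 3 simvastatin arrays were the highest, as for PMAIP1. How many of all genes share this was not counted, and the simvastatin and DMSO groups did not overlap in 28.6% of all genes. ATF3 rose by 0.54 with simvastatin (limma, adjusted p = 0.012) and fell by 0.56 with mevalonate (adjusted p = 0.0116). ATF4, the translationally controlled master factor of the integrated stress response, was at 0.15 (adjusted p = 0.0948, past the threshold with the mean-dependent, robust variance model), DDIT3, which encodes the stress factor CHOP, at 0.19 (adjusted p = 0.397) and FOXO3, which can induce BH3-only genes, at 0.28 (adjusted p = 0.207). Of the proteins that hold or turn over the members, 4 of 11 listed had a value (MARCHF5, CUL5, RNF7 and UCHL1) and 0 were called in simvastatin against DMSO, beside 13.4% of all genes (limma, 0 at an unadjusted p under 0.05), with differences from -0.06 to 0.10.

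**Figure D3:**
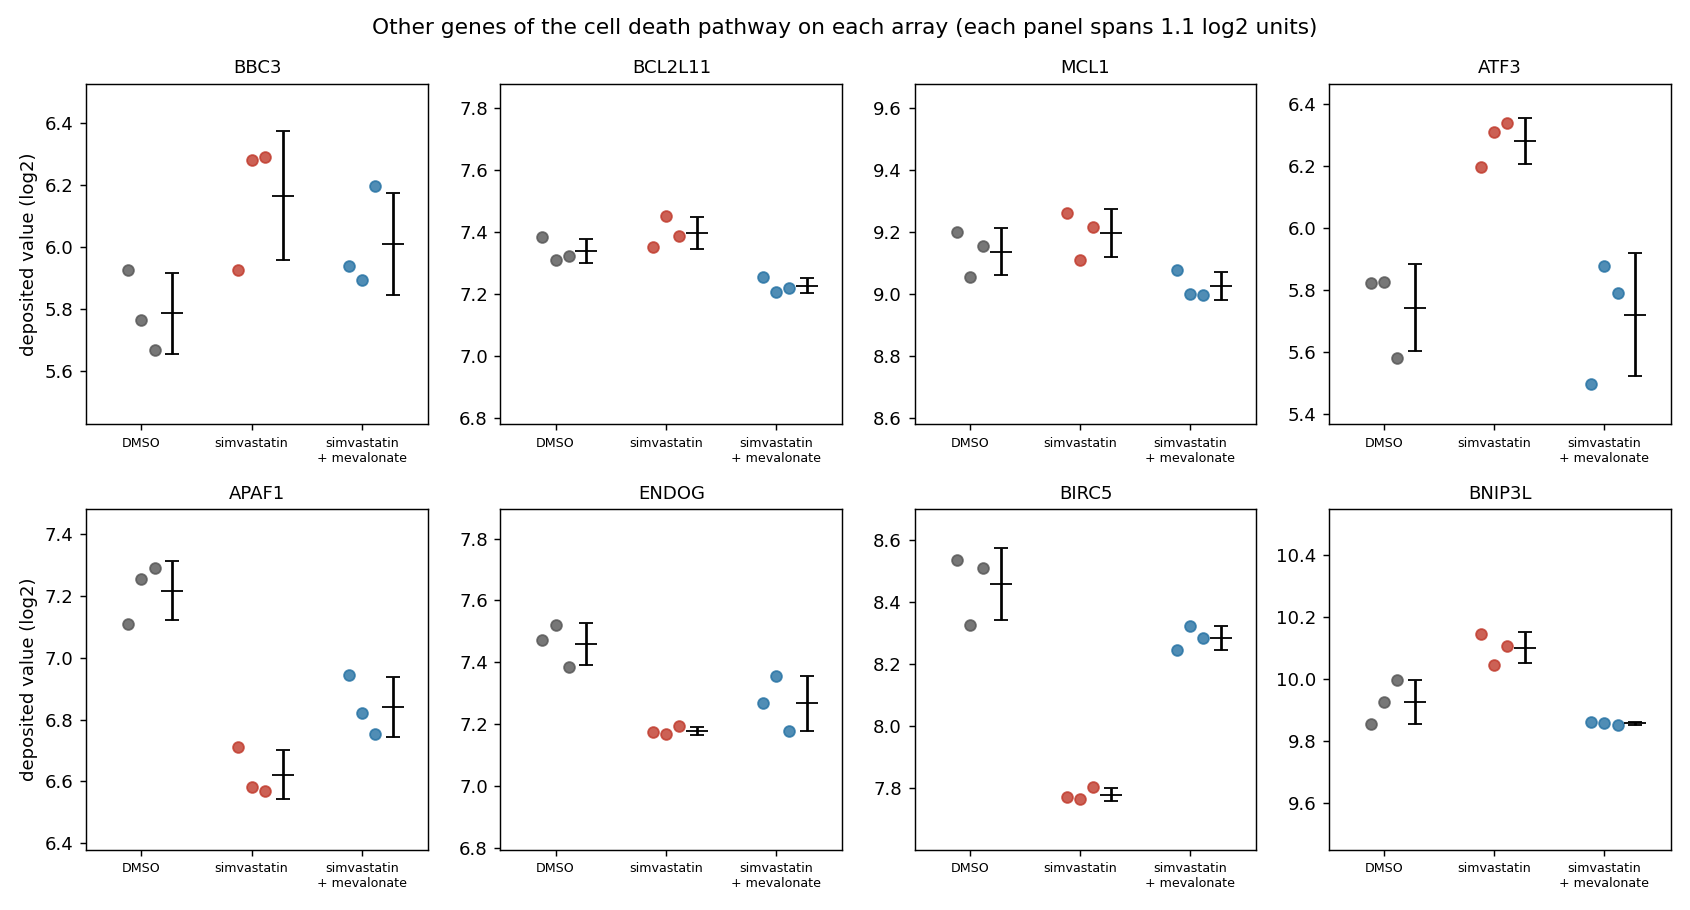
Deposited log2 value on each of the 9 arrays for BBC3, BCL2L11, MCL1, ATF3, APAF1, ENDOG, BIRC5 and BNIP3L. Points are arrays, black bars the mean ± SD of 3 arrays, and each panel spans 1.1 log2 units. ATF3 is highest with simvastatin (6.20 to 6.34), APAF1 and BIRC5 form 3 separate levels (for BIRC5 with DMSO and mevalonate nearly touching), and BBC3 overlaps between groups.

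Genes with the most similar profile to each member were found by the root-mean-square difference of log2 values, each taken about the gene's own mean, over the 9 arrays and among 13150 genes. Closest to PMAIP1 were FHL3 (0.06), which encodes a LIM-domain protein of the actin cytoskeleton, STK40 (0.07), RNF217 (0.07) and MYADM (0.07), against 0.33 for the distance of PMAIP1 itself from a flat line. Closest to BMF were GLCCI1 (0.03), CAMK4 (0.04), a calcium-dependent kinase gene, NDC80 (0.04), which encodes an outer kinetochore protein, and KIF20B (0.04), a mitotic kinesin gene, against 0.22 from a flat line. As follows from a search for closeness, the group means of these 4 had the order of BMF. Their simvastatin minus DMSO ran from -0.56 to -0.49 and their mevalonate minus DMSO from -0.25 to -0.21. For BID the list was CRTAP (0.03), PCNX4 (0.03), TNRC6C (0.03) and RAD21 (0.03), a cohesin gene, and BID itself lay 0.10 from a flat line. The number of genes nearer to a member than that flat line was 5427 for PMAIP1, 4503 for BMF and 2540 for BID. The arrays are shared by all genes, so likeness here is a description.

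**Figure D4:**
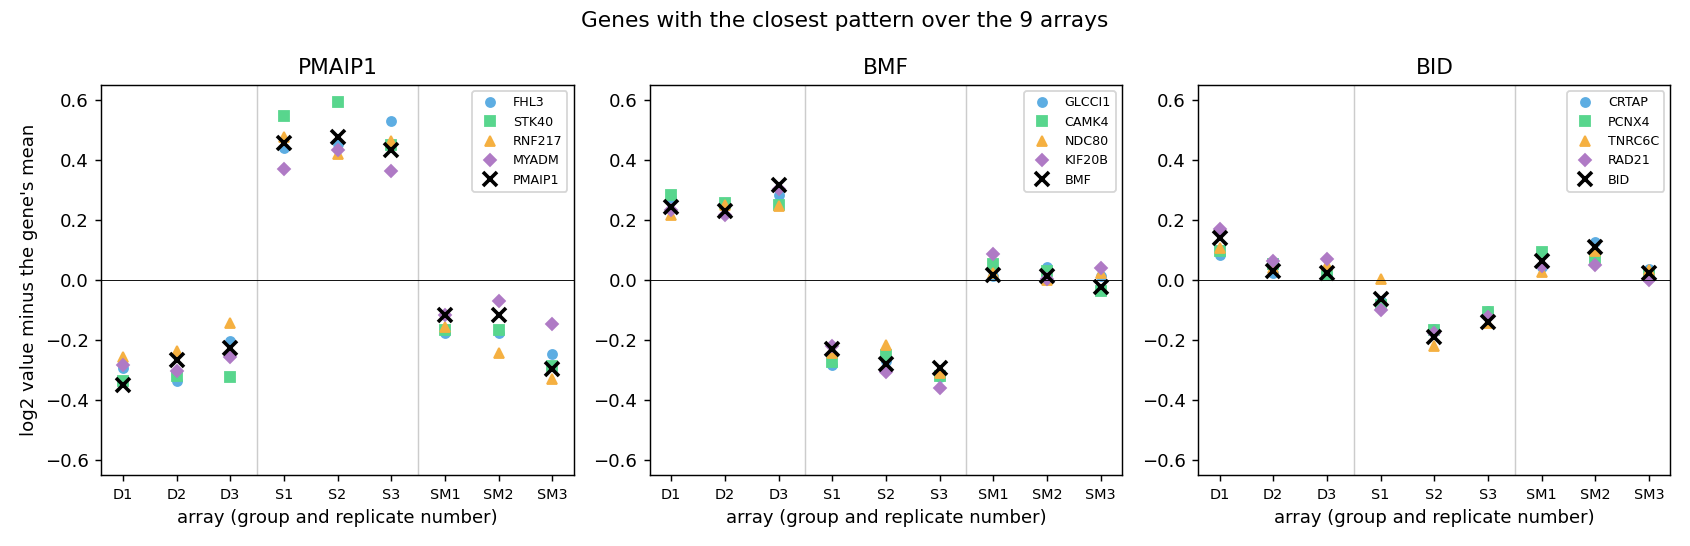
Log2 value minus the gene's mean over the 9 arrays (D, DMSO; S, simvastatin; SM, simvastatin plus mevalonate; digits are replicate numbers), for each member (crosses) and its 4 nearest genes (coloured points). The root-mean-square differences are at most 0.07 for PMAIP1 and 0.04 for BMF and BID.

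Markers of the identity that the label gives were high on the arrays. All 7 measured genes of 8 sympathetic neuroblast markers were above the median of all probesets, and their mean level was 10.13 to 10.15 on DMSO arrays, 9.69 to 9.70 on simvastatin arrays and 10.07 to 10.13 with mevalonate, with 5 of 7 (GATA3, ISL1, TH, DBH and CHGA) falling with simvastatin, beside 7.38% of all genes (limma). Of markers of other cells, 2 of 4 Schwann genes had a value, both also above that median. Their means were 5.46 to 5.78, 5.52 to 5.63 and 5.73 to 5.78 in the same order of groups. Of 3 endothelial genes 2 had a value, both below that median (4.65 to 4.99, 4.71 to 4.98 and 4.78 to 5.09). Of 5 blood genes 1 had a value, CD68, a lysosomal protein gene, also above that median. CD68 read 6.59 to 6.74, 7.01 to 7.25 and 6.61 to 6.87 and rose with simvastatin (0.48, limma adjusted p = 0.00854). Lying above that median therefore does not by itself set the neuroblast markers apart. The part of these shifts in the values of PMAIP1, BMF and BID was not tested. Fewer cells with a transcript and less of it per cell cannot be told apart in bulk RNA.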

How the data were processed

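Total RNA from 9 samples was hybridised, 1 array each. The deposited log2 values, 1 per probeset and array, were made by the authors; GCRMA and HOMER are listed, per the submitters' processing notes, with no version or role, and no genome build is given in these sources. Background handling can alter the size of changes of dim genes, and normalisation between arrays can hide a shift of all genes. How far either applies to these values was not tested. Of 53617 probesets 16098 carried 1 symbol, 0 several and 37519 none, and the brightest probeset of each gene gave 14884 genes, matched to RefSeq by Entrez identifier. Group means of the 9 arrays were fitted with limma 3.58.1 (R 4.3.3; 6 residual degrees of freedom) and adjusted by Benjamini-Hochberg over all genes, with a threshold of 0.05. Data were simulated 5 times for simvastatin against DMSO, with 200 of 14884 genes changed. In these, 67.8% of differences of 0.5 and 94.4% of differences of 1 were called, with 5 to 15 false calls. In the data 1988 genes were called in that comparison, and the adjustment depends on how many genes change, so recovery there may differ. Named are the 3 members, every measured guard, effector and BH3-only gene, up to 3 called genes of each other pathway list with the largest simvastatin difference, and each member's 4 nearest genes; XIAP, HTRA2, MTCH2, ATF4, DDIT3, FOXO3 the genes of the turnover list and the called cell type markers are given besides, chosen after their values were seen. Symbols starting with MIR, SNOR, SCARNA, RNU, RNA5, LOC, LINC or OTTHUM were left out of the search for nearest genes. Members and lists were chosen with earlier results of these data known. Alternatives were quantile normalisation, the mean over probesets, a filter on dim genes, another variance model, fits of only the groups compared, the replicate number as a block and leaving out each array.

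Arrays of 1 group correlated at 0.994 to 0.996. Replicate numbers are shared between groups in the labels, but deviations from the group means of same-numbered arrays correlated at only -0.081 to 0.05, so they were not treated as pairs.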

Additional observations from a re-analysis of the deposited data

How the results depend on the processing

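The differences of PMAIP1, BMF and BID between groups kept their size to within the spread between replicates under every alternative run, except that the mean over both probesets gave BMF -0.32 (simvastatin minus DMSO), 0.16 (mevalonate plus simvastatin minus simvastatin), -0.17 (minus DMSO) and -0.0060 (minus the midpoint, adjusted p = 0.973). That setting adds the dim probeset. With the replicate block, PMAIP1 against the midpoint was -0.26 with an adjusted p of 0.0895, and the genes called went to 234 against the midpoint, in place of 406, and to 0 in mevalonate plus simvastatin against DMSO, in place of 11. The latter count was also 0 with only the groups compared, 105 without genes below the median of all probesets and 223 with the mean-dependent, robust variance model, which gave 715 and 826 calls against the midpoint. The cause was not tested.

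Among the 12 other family genes, 1 was called in simvastatin against DMSO (BBC3) with the filter on dim genes and with the robust variance model, and the filter also gave 1 against the midpoint (BCL2L11). In mevalonate plus simvastatin against simvastatin, 0 were called with quantile normalisation, with the replicate block or with only the groups compared, and 2 with the robust variance model (BCL2L11 and MCL1).

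Leaving out each array in turn, PMAIP1 ranged from 0.70 to 0.76 (simvastatin minus DMSO), from -0.66 to -0.57 (mevalonate plus simvastatin minus simvastatin), from 0.07 to 0.16 (minus DMSO) and from -0.29 to -0.20 (minus the midpoint, where every call was lost). BMF ranged from -0.55 to -0.50, from 0.26 to 0.29, from -0.28 to -0.23 and from -0.0034 to 0.019. BID ranged from -0.23 to -0.16, from 0.17 to 0.23, from -0.02 to 0.04 and from 0.08 to 0.12. Calls over all genes ranged from 1461 to 1744, from 1121 to 1482, from 0 to 12 and from 176 to 334, and those among the 12 family genes from 0 to 1 in the first and second comparisons and stayed at 0 in the others. Same-numbered arrays did not deviate together, so the block was read as no pairing.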
